A study of Homo sapiens with 6 samples.

Results

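The D-type cyclins CCND1, CCND2 and CCND3, the E-type cyclins CCNE1 and CCNE2, the kinases CDK4 and CDK6, and the CIP/KIP inhibitors CDKN1A (p21), CDKN1B (p27) and CDKN1C (p57) were followed by RNA sequencing. These 10 genes were taken by symbol from a table of 58302 genes, and 9 of them passed the filter on low counts. The cells were MDA-MB-231-DR, a doxorubicin-resistant line grown from MDA-MB-231, a human triple-negative breast cancer line, and the methods state that the resistant line was kept in medium with a low concentration of doxorubicin. The labels give 3 control libraries of these cells and 3 libraries of the same cells treated with Cyperotundone (CYT), a compound of sedge rhizome. The comparison asks how CYT changed RNA levels in the resistant line. The dose and duration for these libraries, and whether doxorubicin was present during treatment, are not given in the sources used here. The labels do not say whether replicates were separate cultures, and a general statement in the methods on independent experiments does not name the sequencing. The p-values therefore measure only the spread between these samples, which may be technical.

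Cells leave G1 when D-type cyclins activate CDK4 or CDK6, which start to phosphorylate the retinoblastoma protein RB1, and E-type cyclins with CDK2 then complete this step and release E2F transcription factors. The CIP/KIP proteins bind cyclin-CDK complexes: p21 responds to DNA damage and many other signals, p27 is raised in quiescent cells, and p57 comes from an imprinted gene best known from development. Cyclin D1 and cyclin E are amplified or abundant in many breast cancers, and drugs against CDK4 and CDK6 are used in hormone receptor-positive disease.

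After CYT, RNA of cyclin D1 fell 2.72-fold and that of its partner CDK4 fell 1.91-fold, while the p21 gene CDKN1A rose 2.84-fold and CDKN1C, CCNE1 and CCNE2 rose as well. Of the 9 genes tested, 4 rose, 2 fell and 3 did not pass an adjusted p of 0.05, the last being CCND3, CDK6 and CDKN1B. With 1 library left out, 0 to 3 passed as higher and 1 to 2 as lower, and only CCND1 passed in every such fit. CCND2 was barely counted in any library. Over all 15572 genes tested, 28.6% passed the same threshold, 15.7% as higher and 12.9% as lower. Counts scaled to library size (CPM) of the groups did not overlap for 6 of the 9 genes, against 46.1% of all genes tested. A change of more than 1 in either direction on the log2 scale, together with the adjusted p, was met by 5 of the 9, against 27.4% of all genes. CCNE1 is among these 5 by a narrow margin, at 1.0006. The median log2 fold change was 1.0 over the 9 genes and 0.0064 over all genes tested.

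**Figure D1:**
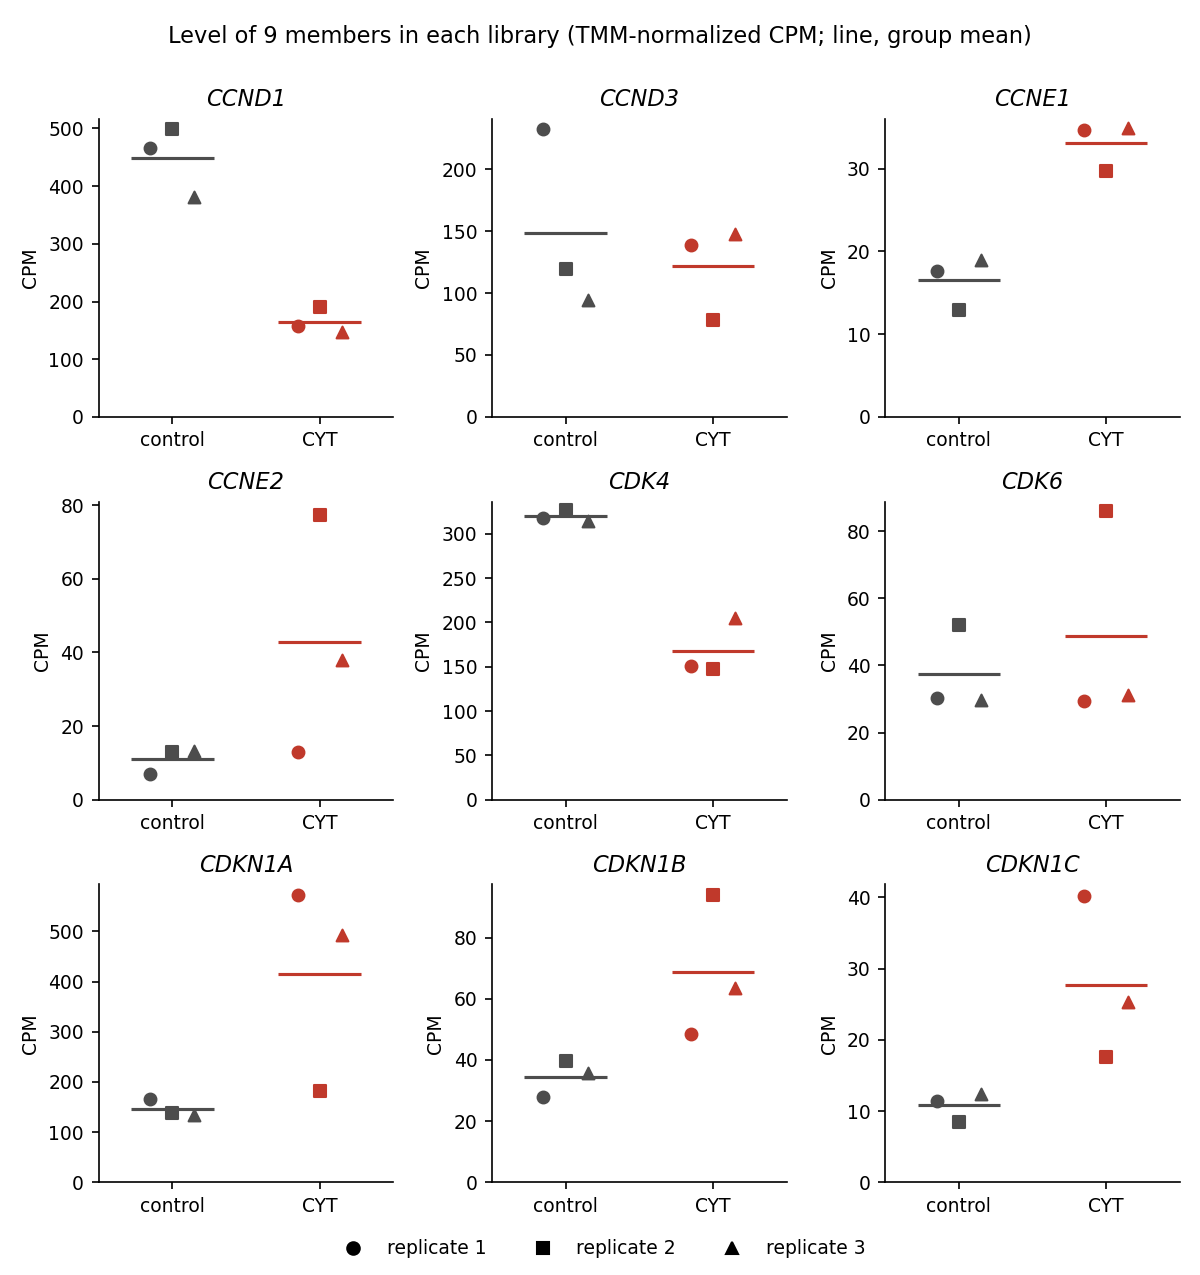
Level of the 9 tested genes in each library, in CPM (vertical axis from 0), with 1 symbol per replicate number and a line at the group mean. CCND1 and CDK4 lie lower in all 3 CYT libraries, CCNE1, CDKN1A, CDKN1B and CDKN1C lie higher in all 3, and CCND3, CCNE2 and CDK6 overlap.

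Library totals ran from 14050849 to 17770102 counts in control and from 13056270 to 14106017 in CYT. CYT replicate 2 stood apart: its log2(CPM + 1) values correlated at 0.917 and 0.915 with the other CYT libraries. The latter correlated with each other at 0.979. Control replicate 2 was also the least alike of its group, at 0.958 and 0.965, against 0.977 between controls 1 and 3. Results on the 9 tested genes are therefore also given without CYT replicate 2, and those fits keep control replicate 2. Markers of the line were well counted, with VIM, CD44, CAV1, AXL and EGFR summing to 3646 to 4040 CPM in control and 1656 to 1804 in CYT, and 3 of these 5 fell. ESR1 and PGR summed to at most 0.397 CPM in any library. Markers of other cells were low: the 4 epithelial genes CDH1, EPCAM, ESRP1 and GRHL2 summed to 0.213 to 0.930 CPM in control and 1.11 to 2.78 in CYT. Leukocyte genes (PTPRC, CD3E, CD68) summed to 6.47 to 23.4 CPM in control and 3.49 to 14.9 in CYT, nearly all from CD68, with CD3E at 0 throughout. Fibroblast genes (COL1A1, COL1A2, DCN) summed to 11.7 to 19.6 CPM in control and 2.78 to 4.30 in CYT, mainly COL1A1, which fell, with DCN at 0 throughout. Endothelial genes (PECAM1, CDH5) summed to 1.24 to 2.66 CPM in control and 0.954 to 1.06 in CYT. In bulk RNA, fewer cells making a transcript and less of it per cell cannot be told apart.

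RefSeq promoters (GRCh38.p14) were at hand for 6 of the 10 genes: CCND3, CCNE1, CDK4, CDK6, CDKN1A and CDKN1B. For CCND3 and CDK6, which have more than 1 listed start, the first was used. The 250 bases before each start were searched on both strands. The GC box GGGCGG, the letters bound by SP1, was found in all 6 windows and in 42.6% of 35116 promoters. CCNE1 held 7 matches, a number reached by 1.12% of promoters, and CCND3 held 5 (4.15%). CDKN1A held 4 (7.63%), 2 of which share a base, CDK4 and CDK6 held 3 each (13.9%) and CDKN1B held 1. The E-box CACGTG, the letters bound by MYC with MAX, was found 3 times before the CDK4 start, which 28 promoters (0.0797%) matched or exceeded, and in none of the other 5 windows, while 6.34% of all promoters hold at least 1. None of the 6 windows held an E2F site (TTTCCCGC, TTTCGCGC, TTTGCCGC or TTTGGCGC, 2.79% of promoters), a CRE (TGACGTCA, 1.65%), an AP-1 site (TGANTCA, 6.57%) or a TATAAA box (10.7%). A match is a description of letters and not a measured binding site.

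Shown here are the exon-free stretches of the CCNE1 and CDKN1A windows, 2 genes that rose, with GC boxes of either strand in capitals. The CCNE1 stretch is chr19:29811741-29811897 on the plus strand, upstream of all annotated exons. The CDKN1A stretch is chr6:36678560-36678657 on the plus strand, which is intronic in transcripts that start further upstream.
CCNE1: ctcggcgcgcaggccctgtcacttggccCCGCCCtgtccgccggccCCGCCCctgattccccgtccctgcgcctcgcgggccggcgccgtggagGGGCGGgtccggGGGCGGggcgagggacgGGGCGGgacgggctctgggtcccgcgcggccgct
CDKN1A: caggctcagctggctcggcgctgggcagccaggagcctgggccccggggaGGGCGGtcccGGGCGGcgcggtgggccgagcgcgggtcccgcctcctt

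The 3 E-boxes of CDK4, a gene that fell, are shown with 10 bases on each side, on the minus strand of the gene and with the E-box in capitals. They begin 216, 196 and 101 bases before the start, at chr12:57752511-57752536, chr12:57752491-57752516 and chr12:57752396-57752421. Exons of other CDK4 transcripts cover much of this window.
CDK4 site 216 bases before the start: gtcaagcggtCACGTGtgatagcaac
CDK4 site 196 bases before the start: agcaacagatCACGTGgctgccatcg
CDK4 site 101 bases before the start: gggtggcggtCACGTGcccagaacgt

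CCND1 (ENSG00000110092, chr11:69641087-69654474, plus strand), the cyclin that couples growth factor signals to CDK4 and CDK6, was counted 7520, 9367 and 5310 times in the control libraries and 2241, 2668 and 1846 times in the CYT libraries. This came to 466, 499 and 382 CPM in control and 158, 190 and 147 CPM after CYT. All CYT libraries, replicate 2 included, lay well below the lowest control library. The means were 449 ± 60.4 (SD, n = 3) and 165 ± 22.4 CPM (SD, n = 3), a log2 fold change of −1.44 (SE 0.27, adjusted p = 0.00459). It was −1.56 when CYT replicate 2 was left out (adjusted p = 0.00253). CCND1 passed the threshold under all 13 alternatives, between −1.57 and −1.29. An exact permutation test on its CPM gave p = 0.1, the smallest that 3 against 3 libraries allow.

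CCND3 (ENSG00000112576, chr6:41934933-42050357, minus strand), the D-type cyclin best known from lymphoid cells, had 233, 119 and 94.4 CPM in control and 139, 78.4 and 147 CPM after CYT. The groups overlapped, with control replicate 1 the highest library and CYT replicate 2 the lowest. Its log2 fold change was −0.29 (SE 0.40, adjusted p = 0.624) and −0.05 without CYT replicate 2 (adjusted p = 0.929). The sign turned to 0.17 without control replicate 1 (adjusted p = 0.801).

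CCND2 (ENSG00000118971, chr12:4273772-4305350, plus strand) was counted 4, 0 and 3 times in control and 0, 1 and 0 times after CYT. With 7 counts against 1, the rate in control was 5.78 times that after CYT, with an exact 95% interval of 0.742 to 260.4 that covers counting error only. A difference was not detectable at this depth, and with no filter on low counts the adjusted p was 0.406.

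CDK4 (ENSG00000135446, chr12:57747727-57756013, minus strand), the kinase partner of the D-type cyclins, had 5129, 6146 and 4369 counts in control and 2136, 2079 and 2578 after CYT. The CPM values were 318, 327 and 314 in control and 151, 148 and 205 after CYT. Control libraries were close together and all CYT libraries were lower, replicate 3 the least so. Its mean fell from 320 ± 6.74 to 168 ± 32.1 CPM (SD, n = 3 each), a log2 fold change of −0.93 (SE 0.27, adjusted p = 0.0298). Leaving out CYT replicate 2 gave −0.85 (adjusted p = 0.0280). The call was lost when CYT replicate 1 or any control replicate was left out, with an adjusted p of at most 0.117 and a log2 fold change between −1.08 and −0.85 over the 6 such fits. It was also lost with upper-quartile normalization (−0.78, adjusted p = 0.0520).

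CDK6 (ENSG00000105810, chr7:92604921-92836594, minus strand), the related kinase, had 30.4, 52.0 and 29.8 CPM in control and 29.3, 86.0 and 31.1 CPM after CYT. Replicate 2 was the highest library in each group, and the other 4 libraries lay between 29.3 and 31.1 CPM. The log2 fold change of 0.38 (SE 0.46, adjusted p = 0.568) became −0.32 without CYT replicate 2 (adjusted p = 0.459). That fit keeps control replicate 2, at 52.0 CPM, and its negative sign leans on that library.

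CCNE1 (ENSG00000105173, chr19:29811898-29824308, plus strand), the cyclin that activates CDK2 late in G1, was counted 285, 243 and 264 times in control and 491, 417 and 439 times after CYT. Its level was 17.7, 12.9 and 19.0 CPM in control and 34.6, 29.7 and 34.9 CPM after CYT. Every CYT library was above every control library. CCNE1 rose from 16.5 ± 3.18 to 33.1 ± 2.93 CPM (SD, n = 3 each), with a log2 fold change of 1.0 (SE 0.30, adjusted p = 0.0323). The value without CYT replicate 2 was 1.07 (adjusted p = 0.0138). In each of the other 5 fits that leave out 1 library, it missed the threshold, with an adjusted p of at most 0.106 and log2 fold changes between 0.84 and 1.09 over all 6. It also missed the threshold with no filter on low counts (0.93, adjusted p = 0.0766).

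CCNE2 (ENSG00000175305, chr8:94879770-94896678, minus strand), a cyclin with the same kinase partner, had 7.07, 12.9 and 13.3 CPM in control and 12.8, 77.4 and 37.9 CPM after CYT. CYT replicate 2 was by far the highest library, and CYT replicate 1 lay within the control range. The mean rose from 11.1 ± 3.50 to 42.7 ± 32.5 CPM (SD, n = 3 each) with a log2 fold change of 1.94 (SE 0.58, adjusted p = 0.0326). Without CYT replicate 2 it was 1.17 and no longer passed (adjusted p = 0.0768). The call remained without CYT replicate 1 (2.37, adjusted p = 0.00886) and was lost in each of the other 5 fits with 1 library left out. limma on log2(FPKM + 1) gave 1.28 (adjusted p = 0.0923). The 2 E-type cyclins thus rose with different spread: CYT to control CPM ratios by replicate number were 1.96, 2.29 and 1.84 for CCNE1 and 1.82, 5.98 and 2.85 for CCNE2.

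CDKN1A (ENSG00000124762, chr6:36676460-36687339, plus strand), which encodes p21, was counted 2690, 2598 and 1854 times in control and 8101, 2546 and 6195 times after CYT. The level was 167, 138 and 133 CPM in control and 571, 181 and 492 CPM after CYT. All CYT libraries exceeded all control libraries, but replicate 2 by little, at 1.31 times its control of the same number against 3.43 and 3.69 times for replicates 1 and 3. The means were 146 ± 18.1 and 415 ± 206 CPM (SD, n = 3 each), a log2 fold change of 1.51 (SE 0.41, adjusted p = 0.0230). Without CYT replicate 2 it was 1.86 (adjusted p = 0.000872). Leaving out any other library lost the call, with an adjusted p of at most 0.0893 and a lowest log2 fold change of 1.20.

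CDKN1B (ENSG00000111276, chr12:12715058-12722371, plus strand), which encodes p27, had 27.8, 39.6 and 35.6 CPM in control and 48.4, 94.0 and 63.4 CPM after CYT. The groups did not overlap, and replicate 2 was the highest library of each. Group means were 34.3 ± 5.99 and 68.6 ± 23.3 CPM (SD, n = 3 each), and the log2 fold change of 1.0 (SE 0.34) missed the threshold with an adjusted p of 0.0504. With the replicate number as a block it was 0.96 (SE 0.24, adjusted p = 0.0130). DESeq2 gave 1.02 (adjusted p = 0.0175). The value was 0.69 without CYT replicate 2 (adjusted p = 0.0738).

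CDKN1C (ENSG00000129757, chr11:2883213-2885881, minus strand), which encodes p57, was counted 185, 160 and 173 times in control and 570, 247 and 319 times after CYT. Its level was 11.5, 8.52 and 12.4 CPM in control and 40.2, 17.6 and 25.3 CPM after CYT. All CYT libraries were higher than all control libraries, and replicate 2 was the lowest of each group. CDKN1C rose from 10.8 ± 2.04 to 27.7 ± 11.5 CPM (SD, n = 3 each), a log2 fold change of 1.36 (SE 0.38, adjusted p = 0.0245). Without CYT replicate 2 the log2 fold change was 1.60 (adjusted p = 0.00451). The 5 other fits with 1 library left out gave 0.98 to 1.45 and lost the call, with an adjusted p of at most 0.105. Unlike CDKN1B, both CDKN1A and CDKN1C were lowest of the CYT group in replicate 2, at 0.341 and 0.536 times the mean of CYT replicates 1 and 3, where CDKN1B was at 1.68 times that mean.

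**Figure D2:**
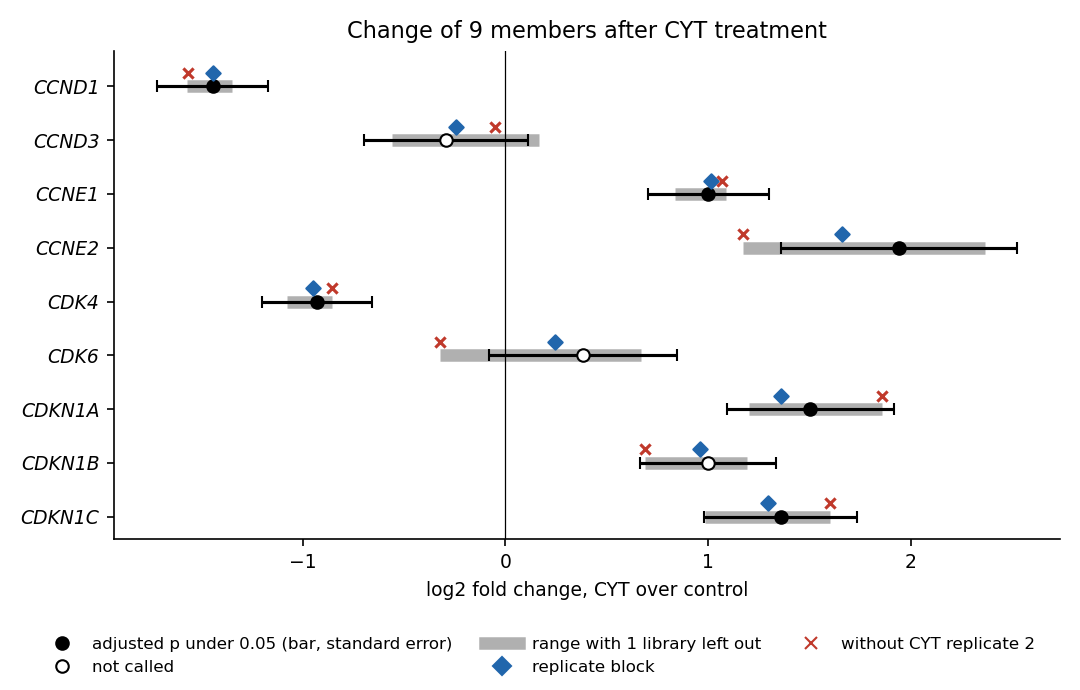
Log2 fold change of CYT over control (horizontal axis) for the 9 tested genes, with the standard error as a bar; filled symbols have an adjusted p under 0.05. Grey bands span the fits with 1 library left out, diamonds are the fit with the replicate number as a block, and crosses are the fit without CYT replicate 2, which turned the sign of CDK6 and lowered CCNE2 from 1.94 to 1.17. That fit keeps control replicate 2, the highest control library for CDK6.

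Other genes share these loci, and whether counting used strand is not given in the sources used here, so reads from overlapping bases of opposite strands cannot be told apart. In all, 17 genes overlap one of the 10 or start within 2 kb of its start, and 7 of these reached 10 counts in some library. TSPAN31, a tetraspanin gene that overlaps CDK4 by 2485 bases on the opposite strand, moved against it. It had 12.9, 28.9 and 23.2 CPM in control and 47.1, 55.8 and 39.1 CPM after CYT, and no CYT library was as low as the highest control library. Its log2 fold change was 1.13 (adjusted p = 0.0409), with 0.98 without CYT replicate 2 (adjusted p = 0.0569). The call was lost in 5 of the 6 fits with 1 library left out, all but that without control replicate 2, and with no filter on low counts (adjusted p = 0.0628). The other 6 did not pass. LTO1 overlaps CCND1 by 1399 bases (0.57, adjusted p = 0.275). TAF8 starts 156 bases from the start of CCND3 (−0.27, adjusted p = 0.533). NDUFAF6 and INTS8 overlap CCNE2 by 912 and 1977 bases (−0.53, adjusted p = 0.263, and −0.78, adjusted p = 0.137). INTS8 passed with the replicate block (−0.82, adjusted p = 0.0354), and also without CYT replicate 2 (−1.06, adjusted p = 0.0390). MARCH9 overlaps CDK4 by 916 bases (−0.48, adjusted p = 0.250) and AC002454.1 overlaps CDK6 by 112 bases (0.12, adjusted p = 0.872).

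Levels between genes were compared on the deposited FPKM, which divides by gene length. Summed over the family, D-type cyclins stood at 75.9, 83.3 and 59.9 FPKM in control and 31.8, 34.6 and 28.7 FPKM after CYT. The sums did not overlap, with means of 73.0 ± 11.9 and 31.7 ± 2.97 FPKM (SD, n = 3 each), and the two-sided exact permutation p was 0.1, the smallest possible here. CCND1 supplied 81.1%, 90.0% and 89.6% of this sum in control and 70.9%, 83.8% and 68.1% after CYT. The shares overlapped between the groups, at 86.9% ± 5.04 and 74.3% ± 8.40 (SD, n = 3 each; exact permutation p = 0.2). By replicate number, the CCND1 share was lower after CYT in 3 of 3. CDK4 and CDK6 together had 45.1 ± 4.52 FPKM in control and 26.1 ± 3.20 after CYT (SD, n = 3 each; exact permutation p = 0.1, without overlap). CDK6 took 5.0%, 8.06% and 4.96% of that sum in control and 9.67%, 24.3% and 7.71% after CYT (exact permutation p = 0.2), higher after CYT in 3 of 3 replicate numbers. With 3 pairs, an exact paired test cannot go below 0.25. The CDK6 share also rises where CDK4 falls, so it adds no evidence of a gain in CDK6. By CPM, CDK6 itself was at 0.963, 1.65 and 1.04 times its control of the same number. Per exonic length, the CDK6 shares were 2.41%, 3.95% and 2.39% in control and 4.78%, 13.1% and 3.77% after CYT, and those of CCND1 were 79.0% ± 7.24 and 62.2% ± 10.7 (SD, n = 3 each). CYT replicate 2 again held the highest CDK6 share. Without it, the CCND1 share differed by −17.4 percentage points in place of −12.6, and that of CDK4 by −2.69 in place of −7.87.

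E-type cyclins summed to 4.40, 4.95 and 5.92 FPKM in control and 9.18, 19.5 and 12.3 FPKM after CYT (exact permutation p = 0.1, without overlap). CCNE1 supplied 76.8%, 56.9% and 65.4% of it in control and 78.1%, 33.7% and 54.9% after CYT. CCNE2 was therefore the larger contributor in 1 library only, CYT replicate 2, and the shares of the groups overlapped (exact permutation p = 0.5). The CIP/KIP genes summed to 32.4, 34.5 and 31.2 FPKM in control and 109.4, 57.5 and 91.3 FPKM after CYT, with means of 32.7 ± 1.67 and 86.1 ± 26.3 (SD, n = 3 each; exact permutation p = 0.1, without overlap). CDKN1A made up 76.5%, 67.9% and 67.8% of this sum in control and 84.0%, 54.3% and 80.9% after CYT (exact permutation p = 0.9). Without CYT replicate 2, the CDKN1A share after CYT was higher by 11.8 percentage points and that of CCNE1 by 0.14, in place of 2.35 and −10.8. In CYT replicate 2, CDKN1B held 40.7% of the sum, against 10.3% and 15.1% in the other CYT libraries.

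**Figure D3:**
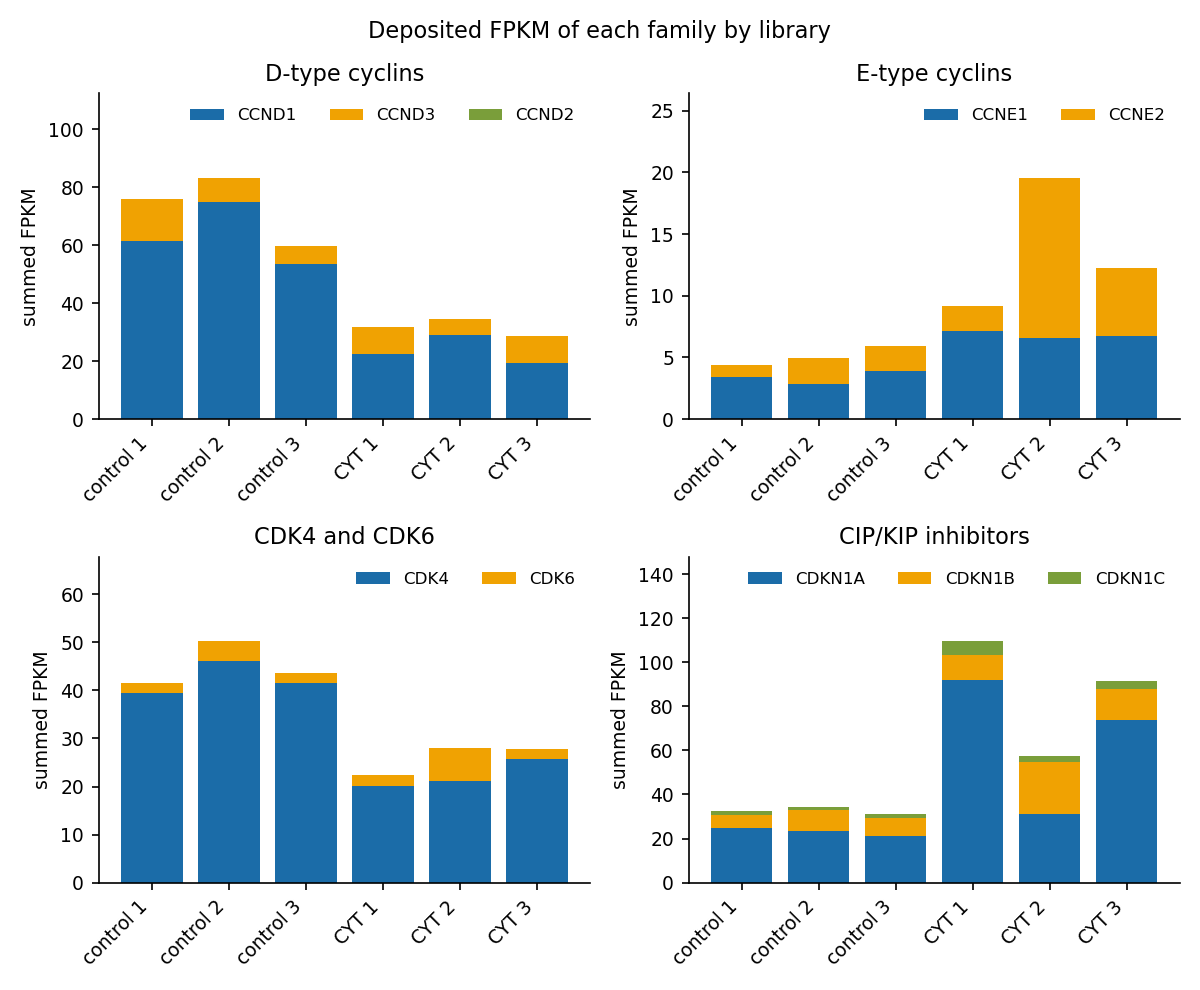
Summed deposited FPKM of each family in each library (vertical axes from 0), with bars divided by gene. D-type cyclins and CDK4 with CDK6 are lower in all 3 CYT libraries, E-type cyclins and CIP/KIP inhibitors are higher in all 3, and CYT replicate 2 has the largest CCNE2, CDK6 and CDKN1B shares.

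By mean FPKM in control, the order was CCND1 (63.4 ± 10.7), CDK4 (42.4 ± 3.44), CDKN1A (23.1 ± 1.86), CCND3 (9.64 ± 4.22), CDKN1B (7.94 ± 1.86), CCNE1 (3.36 ± 0.527), CDK6 (2.76 ± 1.11), CCNE2 (1.73 ± 0.617), CDKN1C (1.64 ± 0.255) and CCND2 (0.019), all SD with n = 3. Library ranges overlapped for the neighbours CCND3 and CDKN1B, and from CCNE1 down to CDKN1C for each neighbouring pair. After CYT, CDKN1A led at 65.7 ± 31.2 FPKM, followed by CCND1 (23.7 ± 4.85), CDK4 (22.4 ± 2.88), CDKN1B (16.1 ± 6.42), CCND3 (8.01 ± 2.09), CCNE2 (6.84 ± 5.59), CCNE1 (6.83 ± 0.306), CDKN1C (4.27 ± 1.74), CDK6 (3.70 ± 2.69) and CCND2 (0.0033). CDKN1A was above CCND1 in every CYT library and below it in every control library. Neighbours whose ranges overlapped after CYT were CCND1 and CDK4, CDK4 and CDKN1B, CCND3 and CCNE2, CCNE2 and CCNE1, and CDKN1C and CDK6. This order depends on the length used. For 9 of the 10 genes the length behind the FPKM equals, within 1 base, the sum of all distinct exons in GENCODE 29, with overlapping exons counted repeatedly. For all 10, it is 1.08 to 2.62 times the exonic length. Per kb of exonic length, CDK4 (100.2) and CCND1 (92.4 CPM per kb, here from library totals) overlapped at the top in control, and CDKN1A (134.5) stood above CDK4 (52.9) and CCND1 (34.6) after CYT.

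Likeness of pattern was measured as the root mean square difference of log2 CPM over the 6 libraries, with each gene centred on its own mean. CCND1 and CDK4 were nearest to each other among the members (0.36), and their nearest genes of the pathway lists were CCNB1 (0.17) and MCM2 (0.24). CDKN1A and CDKN1C lay 0.32 apart, and the list gene nearest to CDKN1A was E2F1 (0.23). CCNE1 was about as near to CDKN1C (0.32), and nearest of the list genes was CDKN2C (0.29). CDKN1C was nearest to CDKN2C as well (0.37) and CDKN1B to MCM6 (0.18) among list genes. CDK6 had CUL4B as its closest list gene (0.19) and CCND3 had AMBRA1 (0.22). CCNE2 was nearest to CDKN1B among the members (0.62) and to CDK1 among list genes (0.57). These distances describe 6 libraries that share 1 control group.

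Around the 10 genes, 6 lists of pathway genes held 61 genes, of which 60 were tested, 9 rose, 10 fell and 41 did not pass. The share called was 31.7%, near the 28.6% of all genes tested. Among G1/S kinase partners and INK4 inhibitors (12 genes, 11 tested), 2 rose and 5 fell, with a median log2 fold change of −0.63. CDKN2C, which encodes the CDK4 and CDK6 inhibitor p18, had 94.4, 83.6 and 110.0 CPM in control and 275.7, 264.4 and 306.0 CPM after CYT. Every CYT library was far above the controls (1.55, SE 0.27, adjusted p = 0.00325). CDK2, the kinase of the E-type cyclins, rose by 1.12 (SE 0.34, adjusted p = 0.0346). CCNA2, the S phase cyclin, fell by 1.71 on the log2 scale (SE 0.37, adjusted p = 0.00777), and MNAT1, a subunit of the CDK-activating kinase, fell by 1.05 (SE 0.30, adjusted p = 0.0278). CDK3 was counted 47, 45 and 48 times in control and 0, 0 and 11 times after CYT (−3.35, SE 1.03, adjusted p = 0.0360). Its call was lost without CYT replicate 1 or any 1 control library (adjusted p at most 0.0980), and without CYT replicate 3 both remaining CYT libraries stood at 0 counts, so the size of its change rests on that library. CDK2 and MNAT1 kept their calls in 2 and 1 of the 6 fits with 1 library left out. MNAT1 also missed the threshold with upper-quartile normalization (−0.90, adjusted p = 0.0516). CDK7 and CCNA1 were the other 2 that fell. The INK4 gene CDKN2D did not pass (−0.22, adjusted p = 0.626). CDKN2A had 31, 20 and 23 counts in control and 13, 7 and 20 after CYT (−0.63, adjusted p = 0.424). CDKN2B had 0 counts in control and 1, 3 and 2 after CYT, too few for a test. CDKN2C and CCNA2 passed under all 13 alternatives. With 1 library left out, 1 to 5 genes of this list fell and 1 to 2 rose. Without any 1 control library or CYT replicate 1, only 1 fell, and 2 fell without CYT replicate 3, with upper-quartile normalization or with a mean of 5 CPM or more.

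Of 13 RB and E2F genes, 3 rose and 2 fell, with a median of −0.47. With 1 library left out 1 to 3 passed in each direction, and with the replicate block 4 rose and 3 fell. The activator genes E2F2 (1.92, SE 0.34, adjusted p = 0.00331) and E2F1 (1.36, SE 0.39, adjusted p = 0.0293) and the atypical repressor E2F8 (1.10, SE 0.29, adjusted p = 0.0200) rose. E2F1 had 174.2, 120.8 and 114.0 CPM in control and 370.8, 179.5 and 496.9 CPM after CYT, with replicate 2 again the lowest CYT library. E2F4, which binds the RB relatives in resting cells, fell by 1.74 on the log2 scale (SE 0.34, adjusted p = 0.00496) and the RB relative RBL1 by 1.30 (SE 0.39, adjusted p = 0.0327). Among 16 E2F-driven S phase genes, 1 rose, 1 fell and the median was −0.19. MCM6, a replication licensing gene, rose by 1.13 (SE 0.35, adjusted p = 0.0364), while MCM3 of the same complex fell by 1.10 on the log2 scale (SE 0.26, adjusted p = 0.0129). E2F2 and E2F4 passed under all 13 alternatives. The calls of E2F1, E2F8 and RBL1 were kept in 2, 3 and 1 of the 6 fits with 1 library left out. RBL1 also missed the threshold with upper-quartile normalization, a mean of 5 CPM or more and both limma fits, and passed in 4 of 13 alternatives. MCM6 lost its call with both limma fits and without CYT replicate 1 or any 1 control library, with an adjusted p of at most 0.129. Without CYT replicate 2, the highest library, its log2 fold change was 0.72. MCM3 lost its call without CYT replicate 3 (−1.02, adjusted p = 0.0591). Of the 16 S phase genes, 2 fell with the replicate block, and 3 rose and 2 fell without CYT replicate 2.

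Of the 3 FOXO factors, which activate CDKN1B in resting cells, FOXO4 (2.36, SE 0.55, adjusted p = 0.0115) and FOXO1 (0.97, SE 0.30, adjusted p = 0.0399) rose, and FOXO3 did not pass. FOXO1 kept its call in 1 of the 6 fits with 1 library left out, that without CYT replicate 2, and lost it with no filter on low counts and with limma on log2(FPKM + 1). FOXO4 lost its call without control replicate 3 (2.12, adjusted p = 0.0553), and its log2 fold change was 3.12 without control replicate 1, the highest of the controls. The 13 ubiquitin ligase genes for cyclins and CDK inhibitors had a median of 0.19, and 1 of them rose: DTL, the CUL4 substrate receptor that targets p21, with 1.65 (SE 0.36, adjusted p = 0.00886), a call lost without control replicate 3 (adjusted p = 0.0517). Of the 4 mitotic genes, CCNB2 (−1.92, SE 0.29, adjusted p = 0.00189) and CCNB1 (−1.58, SE 0.28, adjusted p = 0.00354) fell and did so under all 13 alternatives. CDK1 (1.12, adjusted p = 0.0636) and CCNF (−0.83, adjusted p = 0.119) did not pass. With the replicate number as a block, CDK1 passed as higher (1.09, adjusted p = 0.00775) and CCNF as lower (−0.84, adjusted p = 0.0454). CDK1 passed in 4 of 13 alternatives, the others being DESeq2 (1.15, adjusted p = 0.0243), upper-quartile normalization (1.27, adjusted p = 0.0431) and the fit without control replicate 2 (1.46, adjusted p = 0.0382), and CCNF in 1. Without CYT replicate 2, its highest library, CDK1 stood at 0.66 (adjusted p = 0.154).

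**Figure D4:**
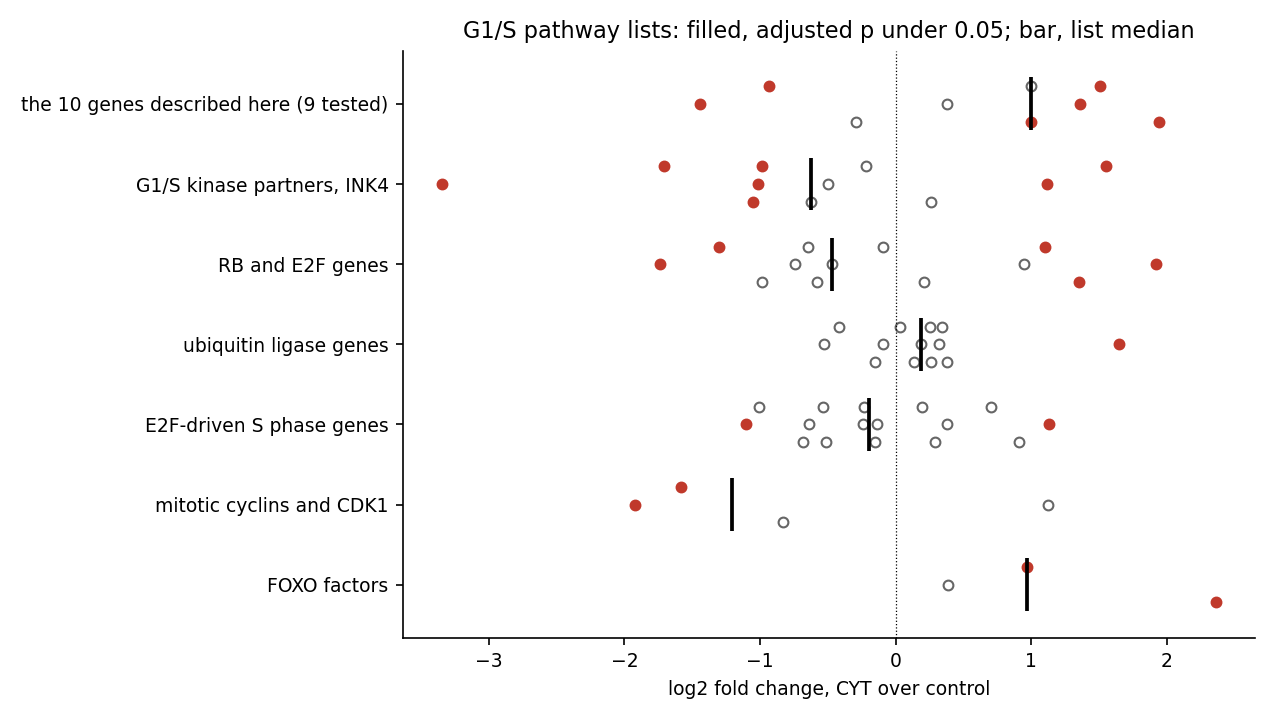
Log2 fold change of CYT over control (horizontal axis) for the 9 tested genes and for each pathway list, with 1 point per tested gene, filled where the adjusted p was under 0.05, and a bar at the list median. Each of the lists of G1/S kinase partners, RB and E2F genes and S phase genes holds filled points on both sides of 0.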

How the data were processed

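RNA of 3 control and 3 CYT-treated MDA-MB-231-DR samples was sequenced. Per the methods, mRNA libraries were read on an Illumina NovaSeq and aligned with Hisat2, Stringtie was used for FPKM and a program given as "edge" for quantification; the submitters' processing notes name FastQC 0.12.1 and hg38. The authors deposited raw counts per gene and FPKM values, and the annotation and strand setting are not given in the sources used here. The 10 genes and all lists were chosen with earlier results of these data known. Counts were analysed with edgeR 4.0.16 (R 4.3.3): TMM normalization, genes kept by filterByExpr at a minimum count of 10, and a quasi-likelihood test over 15572 genes with Benjamini-Hochberg adjustment, tested first on simulated data. "Rose" and "fell" mean an adjusted p under 0.05. CPM values are TMM-normalized; the common biological coefficient of variation was 37.5%. Family shares and sums from the deposited FPKM were compared by exact two-sided permutation tests (scipy 1.17.1). No 2 libraries were duplicates. Same-numbered samples deviated together (r = 0.27, 0.54 and 0.14 over genes), most of all those of replicate 2. However, control 1 deviated more closely with CYT 3 (r = 0.39), and control 3 with CYT 1 (r = 0.24), than either did with the CYT library of its own number. The labels do not say that equal numbers mark pairs. The tests reported are unpaired and the block is an alternative. Named list genes are up to 3 per list and direction with the largest change among those called, and the INK4 genes. Some genes of the pathway are not reported here. Loci are from GENCODE 29 or the deposited table. Alternatives were DESeq2 1.42.0, limma 3.58.1 on log2(FPKM + 1) and log2(FPKM + 0.1), upper-quartile normalization, all genes unfiltered, genes with a mean of 5 CPM or more, the replicate block, and each library left out. Intervals cover counting error only.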

Additional observations from a re-analysis of the deposited data

How the results depend on the processing

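Of the 9 tested genes, CCND1 alone passed under all 13 alternatives. The log2 fold changes with 1 library left out ran from −0.56 to 0.17 for CCND3, 0.84 to 1.09 for CCNE1, 1.17 to 2.37 for CCNE2, −1.08 to −0.85 for CDK4, −0.32 to 0.67 for CDK6, 1.20 to 1.86 for CDKN1A and 0.98 to 1.60 for CDKN1C. CCND3 turned to 0.17 without control replicate 1 and CDK6 to −0.32 without CYT replicate 2, a fit that keeps the high control replicate 2. With 1 library left out, 0 to 3 of the 9 genes passed as higher and 1 to 2 as lower, against 4 and 2 with all 6 libraries. edgeR called 0 as higher without control replicate 1, 2 or 3 or CYT replicate 3, where 4 or 5 had an unadjusted p under 0.05. These fits have fewer samples. Of the pathway list genes, 2 to 11 passed as higher and 5 to 13 as lower with 1 library left out, against 9 and 10.

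CDKN1B passed with DESeq2 (1.02), upper-quartile normalization (1.14), a mean of at least 5 CPM (1.10) and the replicate block (0.96), and in none of the other 9 of 13 alternatives. With 1 library left out its log2 fold change ran from 0.69 to 1.19, with an adjusted p of up to 0.175. The replicate block changed no other member's call. CCNE1 did not pass with no filter (0.93), nor CCNE2 with limma on log2(FPKM + 1) (1.28) or log2(FPKM + 0.1) (1.62), nor CDK4 with upper-quartile normalization (−0.78), which left 1 member lower. The cause was not tested. The upper-quartile scaling moved the median of all genes to 0.16, and with it, or with a mean of at least 5 CPM, 6 pathway genes fell. A mean of at least 5 CPM, which tests fewer genes, gave 1460 genes higher against 2449. Genes called lower over the whole table numbered 2002, 3089 with the replicate block and 1208 to 2750 with 1 library left out. Of the genes at the 10 loci, 1 passed, 2 with the replicate block, 0 with no filter or limma at either pseudocount, and 0 to 1 with 1 library left out. In the edgeR and limma fits that gave 0, 1 or 2 had an unadjusted p under 0.05, and DESeq2 called 1. AC002454.1 ran from −0.074, without CYT replicate 1, to 0.30.

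The CYT minus control difference in the CCNE1 share of E-type cyclins was −10.8 percentage points and ran from −22.1 to 0.14 with 1 library left out, positive without CYT replicate 2. That of CDKN1A among CIP/KIP genes was 2.35 and ran from −3.12 to 11.8, negative without CYT replicate 1 (−3.12) or 3 (−1.57). The filter on low counts left CCND2 and CDKN2B out of the test.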

Other observations

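The balance of CIP/KIP inhibitors to D-type cyclins, a ratio chosen after the values were seen, was computed from the summed FPKM of the 2 families. It was 0.427, 0.414 and 0.520 in the control libraries and 3.44, 1.66 and 3.18 in the CYT libraries. Every control library held more D-type cyclin RNA than CIP/KIP RNA and every CYT library held less, with means of 0.454 ± 0.0578 and 2.76 ± 0.960 (SD, n = 3 each). Since the sums of both families already did not overlap, in opposite directions, this separation adds no evidence to theirs, and no test is given. For the single pair CDKN1A over CCND1, the ratio of FPKM was 0.403, 0.313 and 0.393 in control and 4.07, 1.08 and 3.78 after CYT. Both ratios were lowest of the CYT group in replicate 2. Per exonic length, the family ratio was 0.553 ± 0.0789 in control and 3.09 ± 1.06 after CYT (SD, n = 3 each).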
